A study of Petunia x hybrida with 6 samples.

Results

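A set of 52 gene IDs of the petunia corolla (the petals of the flower) had few reads in the evening and clear levels in the morning. They were chosen from 35812 IDs by their measured levels. An ID needed a summed count of at least 60 over all libraries (17515 IDs had it), a mean below 2 CPM at 7PM and a mean of at least 16 CPM at 7AM. CPM is the number of reads per 1000000, after scaling of the libraries with edgeR's TMM factors. The difference between the times therefore chose the genes, and it is given below as a description with no test.

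The samples were polyadenylated RNA from the corolla of Petunia x hybrida cultivar Mitchell, 3 libraries from 7PM and 3 from 7AM. Plants stood in a greenhouse with 14 h of light and 10 h of dark. Lights came on at 6 AM and went off at 8 PM, so the 7PM samples precede the end of the light period by 1 h and the 7AM samples follow its start by 1 h. The labels name no treatment or mutation and do not say whether replicates came from separate plants, pools or flowers of the same age. All p-values thus measure the spread between these libraries, which may be technical.

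Levels of many plant transcripts rise and fall over the day, under the control of light and of the circadian clock, a set of feedback loops in which genes of the morning and genes of the evening repress each other. In petunia petals the synthesis of volatile benzenoid scent compounds is under such control, and scent is released mainly at night. The clock gene LHY is a morning gene that holds back part of this pathway early in the day. The deposited table does not pair its IDs with names or functions, so none of the 52 can be placed in such a pathway here, no gene list could be applied, and the tissue could not be checked against marker genes. Each gene is called by its ID, in which the number after Scf is the scaffold of the Petunia axillaris reference.

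Library totals ran from 17410929 to 18040038 counts at 7PM and from 16497054 to 17277765 at 7AM. One CPM stood for 14.9 to 16.1 counts in the 7PM libraries and for 19.0 to 19.8 in the 7AM libraries. The limit of 2 CPM thus lay at 29.7 to 32.2 counts in a 7PM library, and the limit of 16 CPM at 304.7 to 316.4 counts in a 7AM library. Transcript lengths were not used, so CPM ranks genes by reads and not by molecules.

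The 52 genes were a small part of the genes with reads at 7AM. Of 8881 genes with a 7AM mean of at least 16 CPM, they made up 0.586%. A further 92 had a 7PM mean of 2 to 4 CPM, 258 of 4 to 8 CPM and 887 of 8 to 16 CPM, and 7592 stayed at 16 CPM or more. Read from the other side, 2686 genes had a 7PM mean below 2 CPM, and 1755 of them were below 2 CPM at 7AM too. Another 783 had a 7AM mean of 2 to 8 CPM and 96 of 8 to 16 CPM. The 52 genes are therefore the edge of a continuous spread and no separate cluster, as the plot of mean levels shows.

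**Figure D1:**
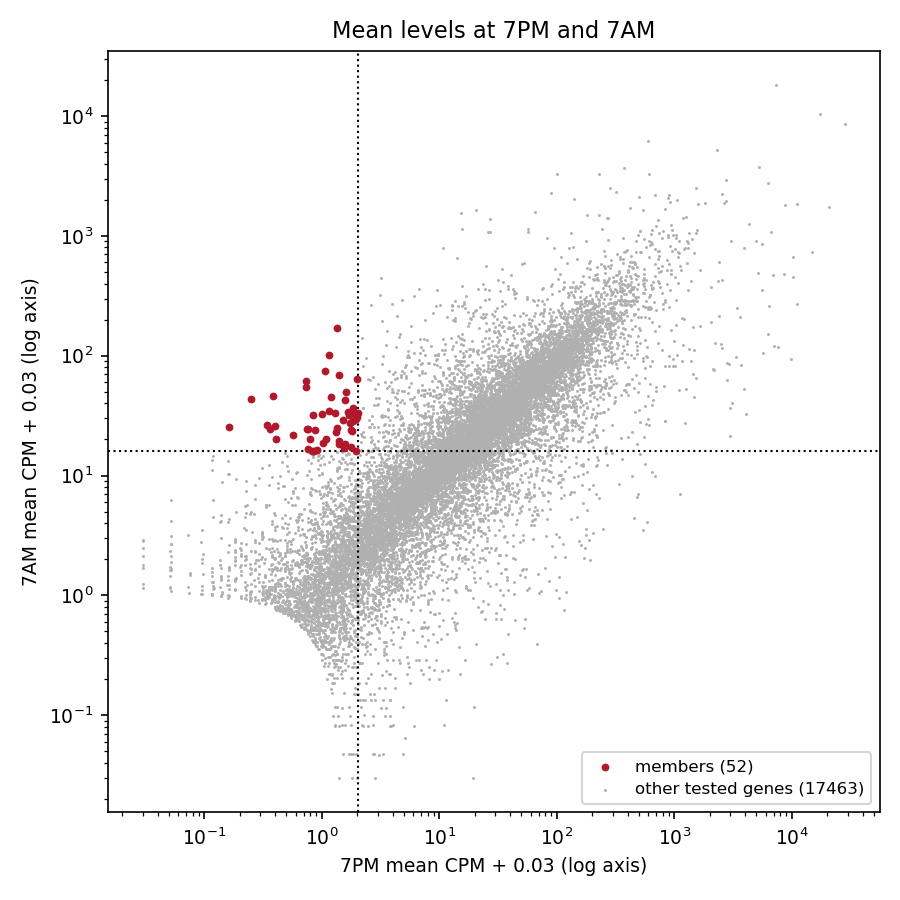
Mean CPM of 3 libraries at 7PM (horizontal, log axis) and at 7AM (vertical, log axis) for all 17515 tested genes, each with 0.03 added so that a mean of 0 can be drawn. Dotted lines mark the limits of 2 CPM at 7PM and 16 CPM at 7AM, and the 52 chosen genes (red) run on into the other genes (grey) across both lines.

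Median levels over the set were 0.871, 1.45 and 1.18 CPM in 7PM replicates 1 to 3, against 27.9, 30.3 and 24.7 CPM in 7AM replicates 1 to 3. All genes of the set together held 791, 1108 and 905 counts in the 7PM libraries, against 36367, 36996 and 31687 in the 7AM libraries. As a share of the library total this was 0.0053 ± 0.0010% at 7PM and 0.207 ± 0.013% at 7AM (SD, n = 3 each). Per gene, the 7PM mean ran from 0.131 to 1.99 CPM with a median of 1.22, and the 7AM mean from 16.05 to 169.7 CPM with a median of 26.9.

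In proportion, the 7PM means were 8.33-fold to 197-fold lower than the 7AM means, with a median of 24.6-fold (7AM mean over 7PM mean). There were 2 genes with less than a 10-fold difference (Peaxi162Scf00366g00816 and Peaxi162Scf00679g00032), 9 with 10- to 16-fold, 30 with 16- to 64-fold and 11 with at least 64-fold. The median log2 difference (7PM over 7AM, of the means) was -4.61, where the median over all 17515 tested genes was -0.05 in edgeR. All 52 were among the genes called lower at 7PM by edgeR's quasi-likelihood test at an adjusted p under 0.05, as were 32.3% of all tested genes. The rule used this contrast, so the count carries no information of its own. In bulk tissue, fewer cells that express a gene and less RNA per cell cannot be told apart.

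Reads of these genes did not vanish at 7PM. No gene of the set had 0 counts in any library, and summed 7PM counts per gene ran from 6 to 91 with a median of 56. Single 7PM libraries held 1 to 54 counts of a gene, which limits the precision of each 7PM value. A 7PM mean below 0.5 CPM was found for 7 genes and one below 1 CPM for 21. In 18 genes at least 1 of the 7PM libraries reached 2 CPM in spite of the mean, and the highest single value was 3.63 CPM. In 11 genes at least 1 of the 7AM libraries was under 16 CPM, and the lowest single value was 6.76 CPM. Both limits were met in every library by 26 of the 52. The 7PM and 7AM values of a gene did not overlap in any of the 52, as the plot of levels in every library shows. The limits of the rule make this likely, and it was not counted over all tested genes, so it carries no information of its own.

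**Figure D2:**
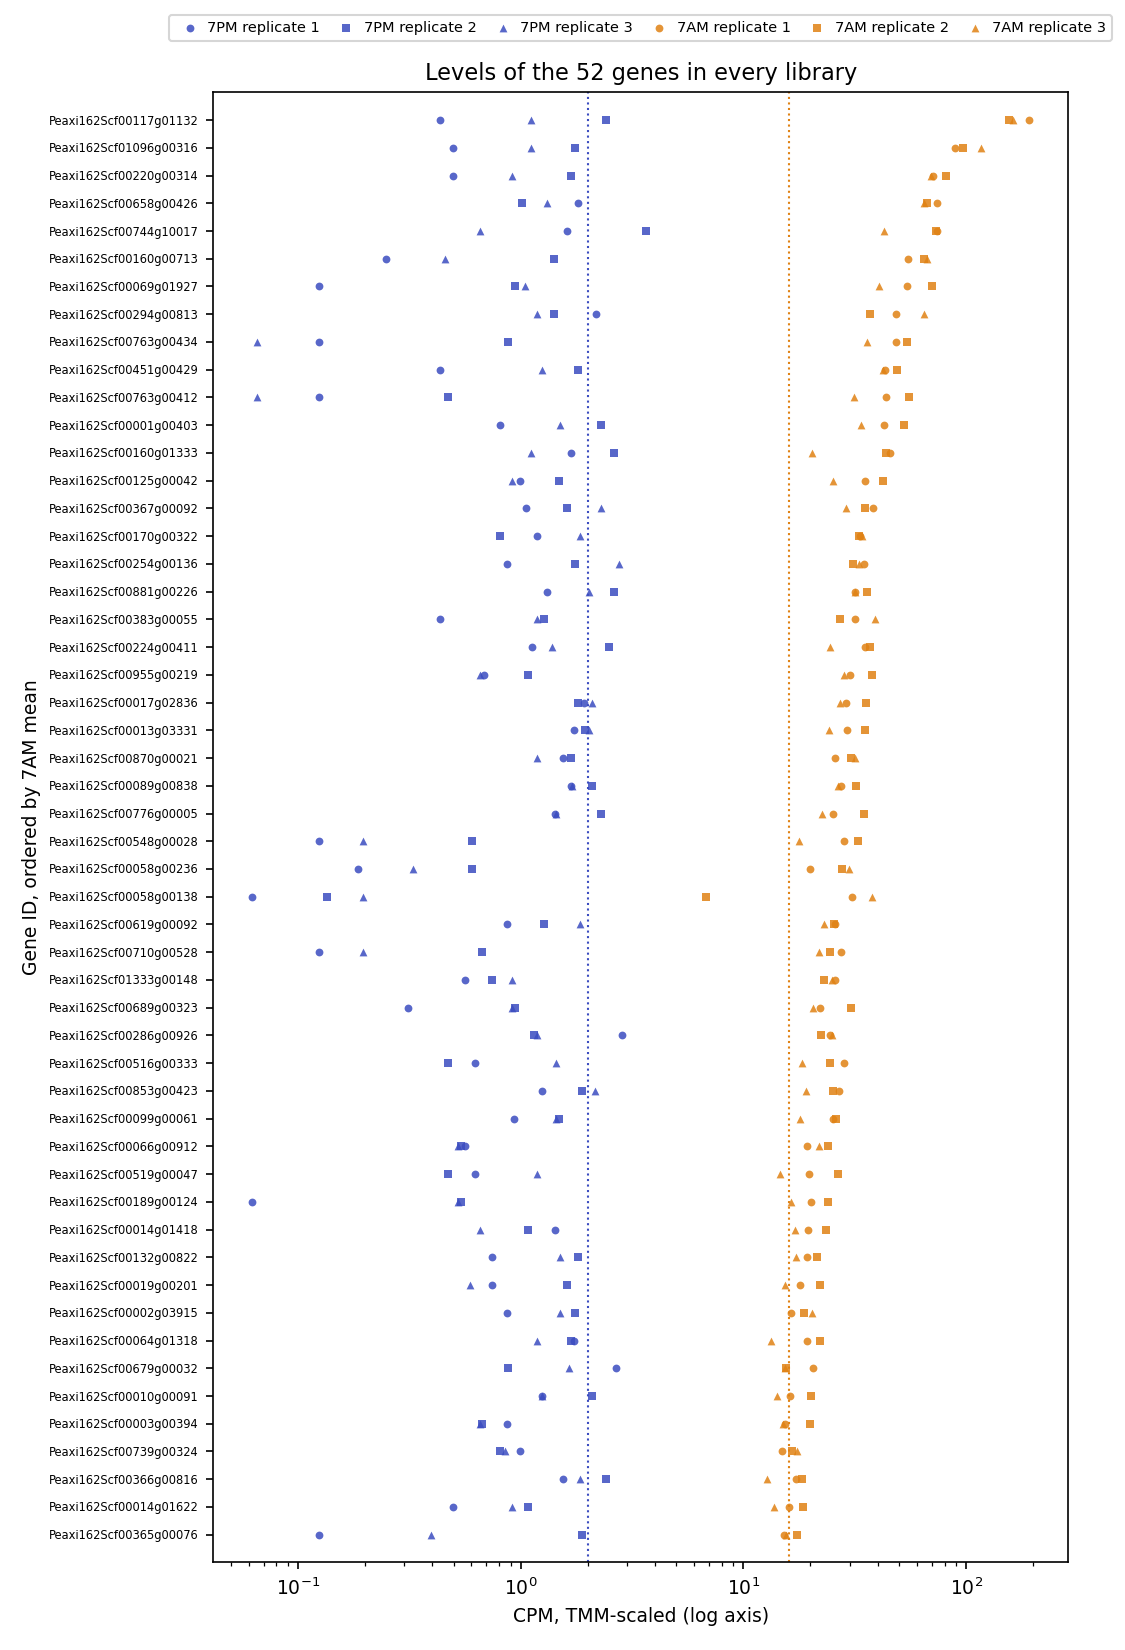
CPM (log axis) of each of the 52 genes in 7PM replicates 1 to 3 (blue) and 7AM replicates 1 to 3 (orange), ordered by the 7AM mean, with dotted lines at 2 and 16 CPM. Every blue point lies left of every orange point of its gene, which the choice by these limits makes likely. The lowest orange point, at 6.76 CPM, is 7AM replicate 2 of Peaxi162Scf00058g00138.

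The 6 genes with the highest 7AM means held 29.8% of the summed 7AM means of the set, and the other 46 lay between 16.05 and 55.1 CPM. Peaxi162Scf00117g01132 was the highest, with 0.435, 2.42 and 1.11 CPM in the 7PM libraries and 192, 155 and 162 CPM in the 7AM libraries. Its means were 1.32 ± 1.01 CPM at 7PM and 169.7 ± 19.8 CPM at 7AM (SD, n = 3 each), a 128-fold lower level at 7PM. Of its 60 evening reads, 36 came from 7PM replicate 2, and without that library the difference was 219-fold.

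Peaxi162Scf01096g00316 had 0.498, 1.75 and 1.11 CPM in the 7PM libraries and 88.8, 96.9 and 116.7 CPM in the 7AM libraries. Peaxi162Scf00220g00314 had 0.498, 1.68 and 0.918 CPM in the 7PM libraries and 71.1, 81.4 and 69.5 CPM in the 7AM libraries. Both were lowest in 7PM replicate 1 and highest in 7PM replicate 2, like the gene above, and their levels were 89.9-fold and 71.7-fold lower at 7PM. Peaxi162Scf00658g00426 went the other way among the evening libraries, with 1.80, 1.01 and 1.31 CPM at 7PM and 73.9, 66.8 and 65.0 CPM at 7AM. Its 7AM values were close together, at 68.5 ± 4.7 CPM (SD, n = 3).

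Peaxi162Scf00744g10017 was uneven at both times. It had 1.62, 3.63 and 0.656 CPM at 7PM and 73.6, 73.5 and 43.0 CPM at 7AM, so that replicate 3 was the lowest of each group. With a 7PM mean of 1.97 CPM it lay just inside the limit of 2 CPM. Without 7PM replicate 2 its difference was 55.8-fold in place of 32.2-fold. Peaxi162Scf00160g00713 had 0.249, 1.41 and 0.459 CPM at 7PM and 54.8, 64.8 and 66.6 CPM at 7AM, an 87.8-fold lower level at 7PM (175-fold without 7PM replicate 2).

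The fewest evening reads were those of Peaxi162Scf00058g00138, with 1, 2 and 3 counts at 7PM and 610, 130 and 721 counts at 7AM. In CPM these were 0.062, 0.135 and 0.197 at 7PM and 30.8, 6.76 and 37.9 at 7AM. The 7AM values had the widest spread of the set, with a coefficient of variation (CV, the SD as a percentage of the mean) of 64.8%, and replicate 2 stood far below the other two. With all libraries the gene was 192-fold lower at 7PM, and 262-fold without 7AM replicate 2. Peaxi162Scf00763g00412 had 2, 7 and 1 counts at 7PM and 864, 1063 and 596 counts at 7AM. Its 197-fold lower level was the largest proportional difference of the set, and it was 457-fold without 7PM replicate 2, which held 7 of its 10 evening reads. Peaxi162Scf00548g00028 had 2, 9 and 3 counts at 7PM and 560, 630 and 339 counts at 7AM. It was 85.1-fold lower at 7PM, and 164-fold without 7PM replicate 2.

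Such dependence on a single evening library was not rare. Leaving out 7PM replicate 2 moved the proportional difference by more than 1.5 times in 8 of the 52 genes. Leaving out 7PM replicate 3 did so in 1 gene (Peaxi162Scf00516g00333, 43.4-fold in place of 28.1-fold), and leaving out any of the other 4 libraries in none. When 1 of 3 evening libraries is left out, a move of that size can only be upwards, so its direction is no result. The median over the set stayed between 21.7-fold and 26.0-fold in all 6 cases.

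The thresholds cut through close values. Just inside the evening limit, Peaxi162Scf00881g00226 had 1.99 ± 0.66 CPM at 7PM and 33.0 ± 2.4 CPM at 7AM (SD, n = 3 each). Just outside it, Peaxi162Scf00380g00814 had 2.11 ± 1.42 CPM at 7PM and 16.4 ± 1.3 CPM at 7AM, and Peaxi162Scf00152g01016 had 2.13 ± 0.88 CPM at 7PM and 22.3 ± 1.5 CPM at 7AM. These evening values differ by less than their SDs. At the morning limit, Peaxi162Scf00365g00076 with 0.801 ± 0.948 CPM at 7PM and 16.05 ± 1.12 CPM at 7AM and Peaxi162Scf00014g01622 with 0.831 ± 0.299 CPM at 7PM and 16.1 ± 2.4 CPM at 7AM were inside. Peaxi162Scf00555g00028 had 0.848 ± 0.152 CPM at 7PM and 15.996 ± 3.295 CPM at 7AM and was outside, as was Peaxi162Scf00134g00189 with 1.45 ± 0.79 CPM at 7PM and 15.9 ± 5.2 CPM at 7AM. In Peaxi162Scf00365g00076 the 7PM counts were 2, 28 and 6, and without replicate 2 its difference was 62.0-fold in place of 20.0-fold.

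Each library was also left out of the choice in turn, and the chosen genes were then read in that library. Without 7PM replicates 1, 2 and 3 the rule took 46, 55 and 52 genes, of which 41, 40 and 44 were below 2 CPM in the library left out. Without 7AM replicates 1, 2 and 3 it took 50, 45 and 52 genes, of which 46, 43 and 42 had at least 16 CPM in the library left out. The share on the same side of the limit was lowest in 7PM replicate 2 (72.7%) and highest in 7AM replicate 2 (95.6%). In a 7PM library left out, no gene so chosen was above 5.11 CPM. In a 7AM library left out, none was below 6.76 CPM.

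Among the 7AM libraries the 52 genes varied more than other genes. The rule used the 7AM mean and not the spread, but both come from the same 7AM values and are not independent. Without 7AM replicates 1, 2 and 3 the rule lost 3, 7 and 2 of the 52 genes and added 1, 0 and 2. The median CV over the 3 libraries was 16.5% in the set, with quartiles of 10.5% and 21.3%. It was 5.71% in the other 8829 genes with a 7AM mean of at least 16 CPM, and 8.13% in the 1294 of these that were called at least 2-fold lower at 7PM. The counting error of a gene, taken as 100 over the root of its mean 7AM count, had a median of 4.38% in the set. In genes with a 7AM mean of 16 to 32 CPM the median was 16.5% in 32 genes of the set and 6.47% in 3101 others. From 32 to 64 CPM it was 20.9% in 16 genes and 5.47% in 2772 others, and from 64 CPM it was 10.2% in 4 genes and 5.30% in 2956 others. Genes are not replicates, so these medians are descriptions with no test. Steeply falling genes just outside the limits, those most like the set, were not summarised apart, so the spread cannot be called particular to the set. Of those named above, Peaxi162Scf00380g00814 and Peaxi162Scf00152g01016 had a 7AM CV of 8.01% and 6.73%. Peaxi162Scf00555g00028 and Peaxi162Scf00134g00189 had 20.6% and 32.9%.

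**Figure D3:**
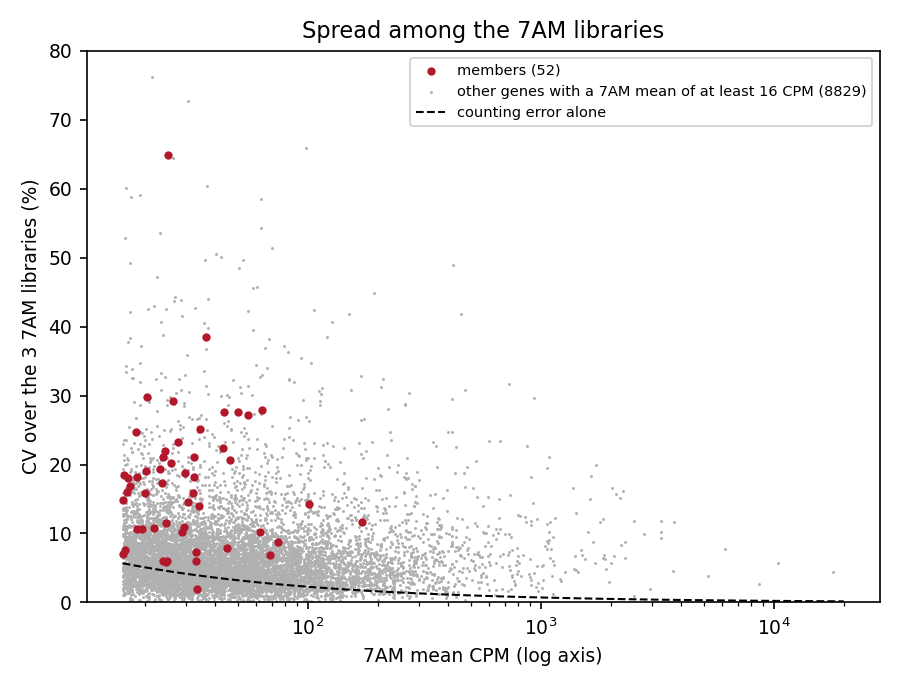
CV over the 3 7AM libraries (percent) against the 7AM mean CPM (log axis) for the 52 chosen genes (red) and the 8829 other genes with a 7AM mean of at least 16 CPM (grey). The dashed line is counting error alone, taken as 100 over the root of the mean count. Of the 52 red points, 41 lie above the upper quartile of the grey points, 8.73%.

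The range within the set was wide. Peaxi162Scf00170g00322 had the steadiest morning level, with 1.18, 0.807 and 1.84 CPM at 7PM and 33.3, 32.9 and 34.2 CPM at 7AM, a CV of 1.97% at 7AM. Peaxi162Scf01333g00148 followed, with 0.560, 0.740 and 0.918 CPM at 7PM and 25.7, 22.9 and 24.9 CPM at 7AM. At the other end, after Peaxi162Scf00058g00138, stood Peaxi162Scf00160g01333 with 1.68, 2.62 and 1.11 CPM at 7PM and 45.7, 43.5 and 20.4 CPM at 7AM. Its 7AM replicate 3 stood at 0.468 times replicate 2, the lowest such ratio of the set. A CV of at most 10% was found in 11 genes, one of 10% to 25% in 32 and one over 25% in 9.

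The unevenness had a direction. In the 7AM libraries 29 of the 52 genes (55.8%) were highest in replicate 2 and 35 (67.3%) were lowest in replicate 3, where 36.6% and 38.0% of the 8829 other genes were. Of the 1294 other genes called at least 2-fold lower at 7PM, 56.3% were highest in replicate 2, as large a share as in the set, and 50.9% were lowest in replicate 3. Replicate 2 was highest and replicate 3 lowest at once in 26 genes of the set (50%), in 20.9% of the other genes, and in 37.3% of those 1294. The median log2 ratio of 7AM replicate 3 over replicate 2 was -0.35 in the set, -0.11 in those 1294 genes and -0.01 in all 8829. Per gene, replicate 3 ran from 0.468 to 5.60 times replicate 2, was lower in 38 of the 52 (73.1%) and was below 0.75 times in 23. It was lower in 69.9% of the 1294 genes, close to the share in the set, and in 53.7% of all 8829. Leaving out 7AM replicate 3 brought the median CV of the set to 10.4%, against 4.34% in the other genes. It was 13.9% against 4.77% without replicate 2 and 20.0% against 4.79% without replicate 1. The set thus had the higher median with each of these libraries left out, and without replicate 3 its median moved by more than 1.5 times. A CV over 2 libraries is not strictly comparable with one over 3. The median of the other genes fell too, from 5.71% over 3 libraries to 4.34% without replicate 3. Neither harvest time nor the flowers sampled are given for single libraries, and their part was not tested.

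At 7PM the remaining reads were also unequal. In 31 of the 52 genes (59.6%) replicate 2 was highest, and in 31 replicate 1 was lowest, with both in 23 genes. Among the 2634 other genes with a 7PM mean below 2 CPM, 30.4% were highest in replicate 2 and 31.9% were lowest in replicate 1. Most of these, 1755, were below 2 CPM at 7AM too. The order at 7PM was not counted in the 1294 other genes called at least 2-fold lower, so it cannot be called particular to the set. The summed level of the set was 49.2, 74.6 and 59.4 CPM in 7PM replicates 1 to 3. In 26 of the 52 genes the 7PM counts varied by no more than counting error could give (chi-square on 2 degrees of freedom, 95% limit not reached). In the 7AM libraries this was so in 7. At a median of 56 summed 7PM counts per gene the check detects only large differences, so these numbers do not rank the times. The median CV of the set was 41.5% over the 7PM libraries and 16.5% over the 7AM libraries. Counting error is larger at the low 7PM counts and was not taken out of either CV, so this pair does not rank the times either. Other genes were not put through the chi-square check, and no 7PM CV was taken for other genes with a 7PM mean below 2 CPM.

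The reverse choice, a mean of at least 16 CPM at 7PM and below 2 CPM at 7AM, gave 76 genes. Their 7PM means had a median of 32.8 CPM and reached 190.9 CPM, and their 7AM means had a median of 1.10 CPM. The median CV at the time of high level was 20.4% over the 7PM libraries for these 76 genes, where 8486 other genes with a 7PM mean of at least 16 CPM had 8.40%. In both sets the genes near the floor at the other time thus had the higher median CV. Over the other genes the median CV was itself higher at 7PM, 8.40% against 5.71% at 7AM.

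The 52 IDs lie on 48 scaffolds of the reference, out of 1306 scaffolds with a tested ID. Scaffolds holding the set had 3 to 193 tested IDs, with a median of 27, where the median over all 1306 was 8. A scaffold with more IDs has more chances to hold one of the set. All 52 IDs carry the letter g, as do all 17515 tested IDs, whereas 2884 IDs of the table carry a t. On 4 scaffolds there were 2 genes of the set, and on none were there more.

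The closest pair was on scaffold 763, where Peaxi162Scf00763g00412 and Peaxi162Scf00763g00434 stood 5 places apart in the order of the ID numbers. That order is taken to follow the scaffold, which the table does not state. Peaxi162Scf00763g00434 had 2, 13 and 1 counts at 7PM and 962, 1045 and 680 counts at 7AM, and its partner, given above, had 2, 7 and 1 at 7PM and 864, 1063 and 596 at 7AM. Both were highest in replicate 2 and lowest in replicate 3 at each time. The proportional difference was 130-fold for Peaxi162Scf00763g00434, and 487-fold without 7PM replicate 2. Of the 4 IDs between them 2 were tested, and 1 was called lower and 1 higher at 7PM.

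The other pairs were further apart or less alike. On scaffold 58, Peaxi162Scf00058g00138 and Peaxi162Scf00058g00236 were 13 places apart. Peaxi162Scf00058g00236 had 3, 9 and 5 counts at 7PM and 394, 531 and 569 counts at 7AM, without the low 7AM replicate 2 of its partner. On scaffold 160, Peaxi162Scf00160g00713 and Peaxi162Scf00160g01333 were 42 places apart, and 7AM replicate 3 was the highest for the first and the lowest for the second. On scaffold 14, Peaxi162Scf00014g01418 and Peaxi162Scf00014g01622 were 6 places apart, at 20.0 ± 3.2 and 16.1 ± 2.4 CPM at 7AM (SD, n = 3 each).

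Genes next to the set were not chosen by the rule and could be read in the fit across all genes. In the order of the ID numbers 103 IDs stood 1 place from a gene of the set. None of them was itself in the set, 24 had 0 counts in every library, and 64 were tested. Of these 64, edgeR called 27 (42.2%) lower and 18 (28.1%) higher at 7PM, where 32.3% of all tested genes were lower and 27.5% were higher. At least 2-fold, 12 (18.8%) were lower and 7 (10.9%) higher, where 15.6% and 13.1% of all tested genes were. The median log2 fold change of the neighbours was -0.15, against -0.05 over all tested genes. IDs 2 places away were lower in 17 of 56 (30.4%) and higher in 15 (26.8%), close to the share over all genes. A 7PM mean below 2 CPM was found in 8 of the 64, no larger a share than the 2686 of all 17515 tested genes. Genes are not replicates, so the difference in shares was not tested.

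**Figure D4:**
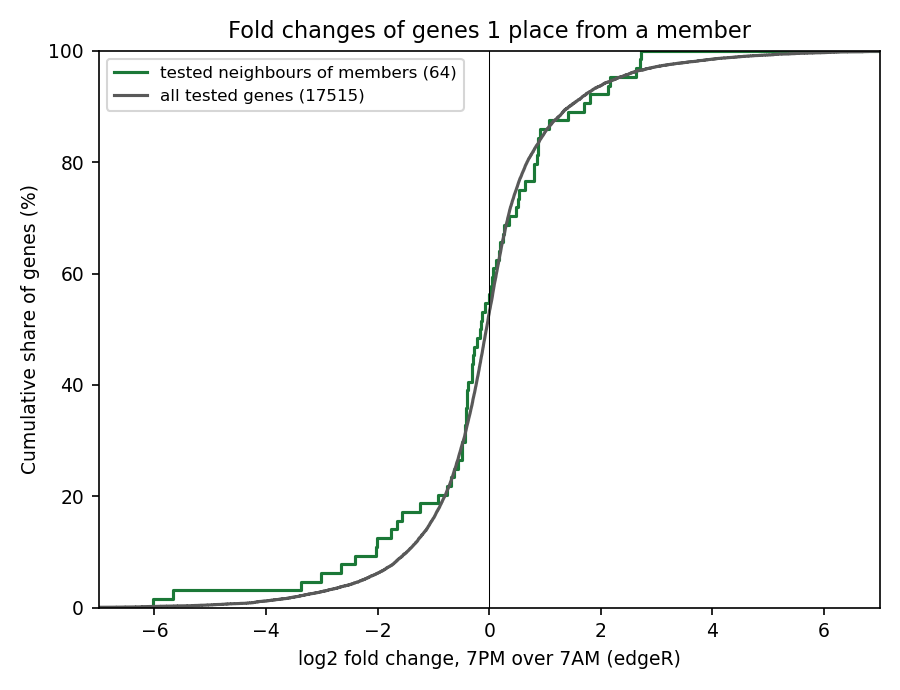
Cumulative share of genes (percent) by log2 fold change of 7PM over 7AM from edgeR, for the 64 tested neighbours of the set (green) and all 17515 tested genes (grey). The curves run close together above 0, and the green curve lies above the grey one below -1, where 12 neighbours were called at least 2-fold lower.

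A few neighbours did fall steeply, and they are named here because of their values. Peaxi162Scf00220g00313, next to Peaxi162Scf00220g00314, had 22, 52 and 25 counts at 7PM and 2506, 2992 and 2675 counts at 7AM. Its means of 2.17 CPM at 7PM and 141 CPM at 7AM missed the evening limit narrowly, and its log2 fold change was -6.03 with an edgeR adjusted p of 6.32e-06. Like the gene beside it, it was lowest in 7PM replicate 1 and highest in 7PM replicate 2.

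Peaxi162Scf00739g00331, next to Peaxi162Scf00739g00324, was far more abundant in reads. It had 394, 515 and 337 counts at 7PM and 27055, 27982 and 25203 counts at 7AM, or 27.1 CPM at 7PM and 1382 CPM at 7AM. Its log2 fold change was -5.67 (edgeR adjusted p of 2.63e-06). The gene of the set beside it had only 16, 12 and 13 counts at 7PM and 296, 319 and 332 counts at 7AM. Peaxi162Scf00763g00438, next to Peaxi162Scf00763g00434, had 126 CPM at 7PM and 793 CPM at 7AM (log2 fold change -2.65, edgeR adjusted p of 7.22e-06). Peaxi162Scf00286g00929, next to Peaxi162Scf00286g00926, had 2.21 CPM at 7PM and 23.2 CPM at 7AM (log2 fold change -3.37, edgeR adjusted p of 0.000539).

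Others rose beside a gene that fell. Peaxi162Scf00658g00425, next to Peaxi162Scf00658g00426, had 115, 50 and 105 counts at 7PM and 12, 20 and 22 counts at 7AM (log2 fold change 2.63, edgeR adjusted p of 0.000858). Peaxi162Scf00619g00113, next to Peaxi162Scf00619g00092, had 454, 214 and 381 counts at 7PM and 62, 61 and 76 counts at 7AM (log2 fold change 2.71, edgeR adjusted p of 0.000143). Both were higher in each 7PM library than in any 7AM library. Neighbours can be near-identical copies or pieces of 1 gene between which reads are split or lost, and without sequences or coordinates this was not tested.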

How the data were processed

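The deposited table holds raw counts (whole numbers) by gene ID in 6 columns, tied here to the samples by their descriptions. Reads were aligned to a Petunia axillaris genome, per the series' design text, with cutadapt, TopHat2 and HTSeq among the tools, per the submitters' processing notes. Their versions and settings, the annotation, and how strand and multiply matching reads were handled were not given in the sources used here. Reads of a hybrid counted on the genome of 1 parent may be lost for alleles of the other.

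IDs with a summed count of at least 60 were kept, which held at least 99.897% of each total. Libraries were scaled with TMM factors (edgeR 4.0.16, R 4.3.3), and CPM are counts per effective library size. TMM moves every 7PM over 7AM difference by 0.39 on the log2 scale relative to library totals. 7PM was compared with 7AM by edgeR's quasi-likelihood test (glmQLFit, glmQLFTest), Benjamini-Hochberg adjusted over all kept genes, at 0.05. The test step was tested on simulated data. Alternatives were other scalings, filters and limits, DESeq2 1.42.0, limma-voom (limma 3.58.1), a replicate block and each library left out. The genes and rules were chosen with earlier results of these data known. Named genes of the set were the 6 highest at 7AM, the 3 with fewest 7PM counts, the 2 widest and 2 steadiest at 7AM, those on 3 scaffolds with pairs and those at each limit. The pair on scaffold 14, other genes of the set singled out by a count or a neighbour, and the neighbours were named after their values were seen. Figures after ± are SDs over the 3 libraries of a time, so they hold both counting error and differences between libraries.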

Additional observations from a re-analysis of the deposited data

How the results depend on the processing

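The leaving out of 7AM libraries for the spread and of each library for single genes was added after seeing the data. The number of genes chosen depended on scaling and on the limits. With library totals alone 81 genes were chosen, all 52 among them. They held 0.00916% of counts at 7PM and 0.287% at 7AM, and 18 shared a scaffold with another. With the same scaling 9345 genes were called lower and 2825 higher at 7PM over all tested genes. With RLE factors 5140 were lower and 5307 higher, so which direction held more calls depended on scaling. With DESeq2, which changes scaling and test at once, 4875 were lower and 5196 higher. With limma-voom 5731 were lower and 4740 higher. With edgeR's RLE factors 46 of the 52 stayed and none was added, and with upper-quartile factors 54 were chosen. A 7PM limit of 1 CPM left 21 genes (4 sharing a scaffold), a 7AM limit of 32 CPM left 20 (4) and a 7AM limit of 8 CPM took 148 (32). With 1 library left out, 45 to 55 genes were chosen, 43 to 50 of them shared with the 52. Their share of 7AM counts was then 0.180% to 0.255%, and the median 7AM CV was 10.4% to 20.0%. Neighbours called lower were 23 to 26 with 1 library left out and 17 at 2 places away. Of 112 alternative values, 95 stayed within the spread between replicates, or within 1.5 times for counts. For the median CV that spread was the SD of the values with 1 7AM library left out. Those values were thus judged against their own spread. Correlations of the deviations of libraries with the same number were -0.242, 0.103 and 0.097, and other pairs reached 0.271, so the numbers were not taken as pairs. With the replicate block, 5330 genes were lower and 4503 higher, and 27 and 18 neighbours. Evening values rest on 6 to 91 summed counts per gene.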
